A study of Mus musculus with 12 samples.

Results

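The Ifi200 family of DNA sensors was followed in mouse vessels before and during 7 days of angiotensin II infusion. The list held 9 genes: Ifi204, Ifi207, Ifi211, Ifi205, Mndal, Ifi203, Ifi203-ps, Ifi209 and Aim2. A member was selected by its symbol: a transcript cluster, the array's unit for a gene, had to carry the member's symbol and no other in the probe annotation. The highest mean over 12 arrays would have decided between several clusters, but each of 7 members had exactly 1, so it decided nothing. Those 7 stood among 30702 genes measured in this way, and all 7 passed the filter on dim signals. Ifi203 and Ifi205 were covered only by clusters annotated to several genes and are described as such. The family was put on the list with results of these same arrays known. Counts over the members, and their changes between any of the days, are therefore a description and no independent evidence of a rise.

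Total RNA came from vessels of male C57BL/6 mice aged 8 to 10 weeks. Mice of day 0 were untreated. Those of days 1, 3 and 7 received angiotensin II, the peptide hormone that constricts arteries and raises blood pressure, at 1500 ng per kg per min, delivered by an osmotic pump. Each of the 4 groups had 3 arrays, described as biological replicates. The sources used here name no vehicle pump for day 0, and the effect of implanting a pump therefore cannot be told apart from that of the hormone. They do not name the vessel, nor whether RNA of several animals was pooled for an array, so p-values measure the spread between these samples. As a check of the labelled tissue, the 10 smooth muscle markers tested averaged 13.8 on the log2 scale at day 0, and none of them was under the median of the negative control features.

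Proteins of this family (PYHIN or HIN-200 proteins) bind double-stranded DNA through a HIN domain, and most carry an N-terminal pyrin domain that recruits signalling partners. AIM2 assembles an inflammasome with the adaptor ASC and caspase-1 when DNA reaches the cytosol. Several of the nuclear members, among them p204, the product of Ifi204, have been linked to the STING pathway that switches on type I interferon. Most of the genes are themselves induced by interferon, and macrophages are among the cells that express them strongly. In the mouse they lie side by side on chromosome 1. RefSeq lists 14 of them there, in the order Aim2, Ifi206, Ifi214, Ifi213, Ifi209, Ifi208, Ifi207, Ifi204, Ifi203-ps, Mndal, Ifi211, Ifi203, Ifi202b and Ifi205. RefSeq calls Ifi203-ps a pseudogene and the other 13 protein-coding. Such neighbours arose by duplication and resemble each other in sequence. Probe sequences were not used here, so signal shared between paralogs could not be separated.

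Interferon acts on most of its target genes through the interferon-stimulated response element, whose core is a pair of GAAA blocks set apart by a pair of bases. The RefSeq promoter windows (build GRCm38.p6, 250 bases before to 50 after a transcript start) were searched on both strands for this core, GAAANNGAAA. It was found for 5 of the 7 listed members that have a window, Ifi207, Ifi211, Ifi205, Mndal and Ifi203, and for 4 of the 5 other family genes. Of all 27025 genes with a window 3.99% held it. Ifi204 and Ifi203-ps have no entry in the table. The stretches below show in capitals the core, or for Ifi209 the stretch closest to it, with 36 bases before it and 24 after, read 5′ to 3′ on the strand of the gene. They are printed to show how far the family's windows resemble each other. Ifi214 and Ifi208, which are not on the list, are shown as the nearest relatives of Ifi209 and of Ifi206 and Ifi213.
Ifi207 (chr1:173741817-173741886, minus strand): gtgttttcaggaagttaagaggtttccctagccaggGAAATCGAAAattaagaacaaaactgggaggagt
Ifi211 (chr1:173913050-173913119, minus strand): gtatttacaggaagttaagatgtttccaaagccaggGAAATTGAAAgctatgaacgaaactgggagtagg
Ifi205 (chr1:174031856-174031925, minus strand): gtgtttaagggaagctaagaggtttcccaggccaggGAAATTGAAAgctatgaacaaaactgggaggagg
Mndal (chr1:173880190-173880259, minus strand): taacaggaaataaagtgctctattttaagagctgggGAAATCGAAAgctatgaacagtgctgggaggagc
Ifi203 (chr1:173942494-173942563, minus strand): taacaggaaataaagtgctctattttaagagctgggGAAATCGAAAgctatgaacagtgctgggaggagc
Ifi209 (chr1:173630744-173630813, plus strand): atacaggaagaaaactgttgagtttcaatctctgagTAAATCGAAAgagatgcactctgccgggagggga
Ifi214 (chr1:173536003-173536072, minus strand): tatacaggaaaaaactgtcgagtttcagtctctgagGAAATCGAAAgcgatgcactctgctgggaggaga
Ifi208 (chr1:173673571-173673640, plus strand): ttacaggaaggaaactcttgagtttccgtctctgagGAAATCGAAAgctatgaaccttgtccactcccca

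The core began 41 bases before the start of Ifi207, 37 before that of Ifi211, 36 before that of Mndal and 35 before that of Ifi203. In Ifi205 it began 134 bases before the start, with another match on the opposite strand after the start. Mndal and Ifi203 each have a further start, whose window held a match on the opposite strand for Mndal and none for Ifi203. The commonest form in the family was GAAATCGAAA. This form was picked after the sequences were seen. It stood in 7 of the 12 family genes with a window, and in only 16 of all 27025 genes (0.0592%), family included. Ifi211 and Ifi205 carried GAAATTGAAA instead. Ifi209 held no match: its closest stretch differed by 1 base (G1T, counted from 1 at the first base of the core) and lay 79 bases before the start, where Ifi214 has the full core. Aim2 held no stretch before its start within 3 differences of the family's core, the closest having 4. The gamma-activated site TTCNNNGAA, a palindrome through which interferon gamma acts, was in none of the 7 members' windows and in 9.55% of all genes. A match describes letters, not a site in use, and a window without a match says nothing about the factor.

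**Figure D1:**
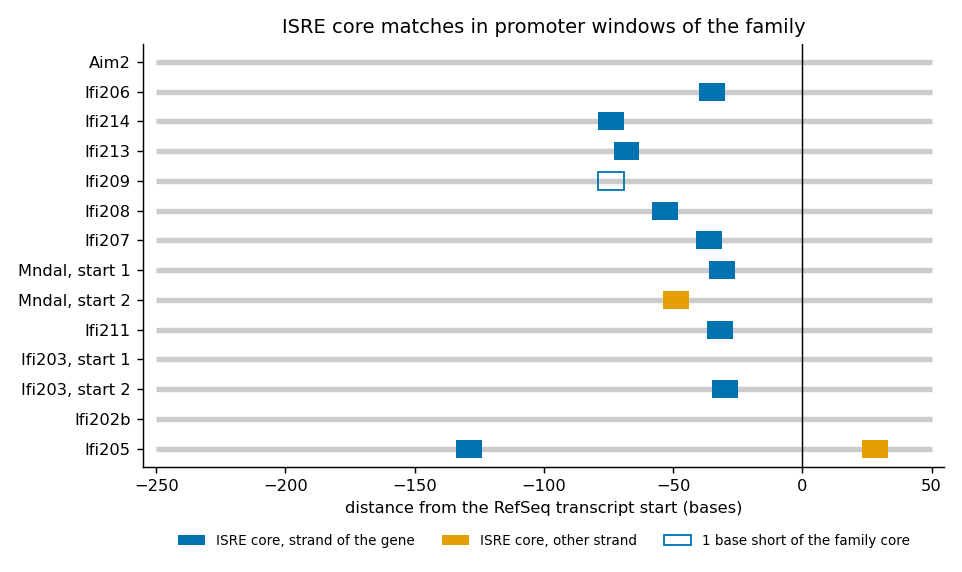
Matches to the interferon-stimulated response element core in the RefSeq promoter windows of the family, in chromosomal order; the x axis is the distance in bases from each transcript start, grey bars are the windows, and filled boxes are matches on the strand of the gene or on the other strand. The open box is the stretch of Ifi209 that differs from the family's core by 1 base; Aim2, Ifi202b and the window at start 1 of Ifi203 show no match.

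Beyond the core, the windows fell into kinds. The longest stretch of identical bases was 139 between Mndal and Ifi203, 45 between Ifi211 and Ifi205, and 31 between Ifi207 and either of that pair. Between Mndal or Ifi203 on the one side and Ifi207, Ifi211 or Ifi205 on the other it was at most 14. Ifi206, Ifi208 and Ifi213 shared 135 to 182 bases, and Ifi209 shared 109 with Ifi214. Ifi202b, which shares a cluster with Ifi205, had at most 8 bases in common with Ifi207, Ifi211 or Ifi205. Aim2 shared no more than 9 with any of them.

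Signal over background differed between groups. It was taken as how far the positive controls' median exceeded the negative controls', which was 2.56 to 2.64 log2 units at day 0, 1.94 to 2.51 at day 1 and 1.83 to 2.11 at day 3. At day 7 it was 1.98 and 2.10 on replicates 2 and 3 and 1.20 on replicate 1, which stands apart from the other 11 arrays. Day 7 changes of the family, and counts over the gene lists at day 7, are given with and without that array.

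Ifi204, Ifi207 and Ifi211 stood higher at every step up to day 3. Ifi204 encodes p204, the mouse counterpart of human IFI16. The log2 signal of Ifi204 was 8.35, 7.98 and 8.67 on replicates 1 to 3 of day 0 (in that order throughout) and 9.30, 9.68 and 9.44 at day 1. It was 10.61, 10.72 and 11.06 at day 3, and 10.21, 13.99 and 12.46 at day 7. The 3 arrays of each day up to day 3 lay above those of the day before. The day 7 arrays were spread widely: replicates 2 and 3 exceeded all others, while replicate 1 was below the day 3 arrays and above day 1.

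Ifi207, linked to the stability of STING, had 8.87, 7.87 and 8.85 at day 0 and 9.23, 9.85 and 9.49 at day 1. At day 3 the arrays lay close together at 10.83, 10.89 and 10.99, and at day 7 they read 10.23, 13.28 and 11.87. Ifi211 had 8.04, 7.47 and 8.16 at day 0, 8.44, 9.01 and 8.57 at day 1, 9.84, 9.83 and 10.09 at day 3, and 9.42, 12.99 and 11.40 at day 7. For both genes the groups up to day 3 did not overlap, and day 7 replicate 1 again fell short of day 3. That array was below the highest day 3 array by 0.85 for Ifi204, 0.76 for Ifi207 and 0.67 for Ifi211, while it stood above every day 0 array for each.

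The cluster annotated to Ifi202b, Ifi205 and a further locus behaved like those 3. Its product p205 is known as a regulator of ASC expression. It read 6.55, 6.32 and 6.84 at day 0, 6.73, 6.98 and 6.93 at day 1, 8.04, 7.63 and 7.93 at day 3, and 7.43, 9.09 and 8.23 at day 7. Days 0 and 1 overlapped, all day 3 arrays lay above them, and day 7 replicate 1 was lower than the day 3 arrays. How much of this signal belongs to Ifi205 and how much to Ifi202b cannot be told apart.

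Mndal, the myeloid nuclear differentiation antigen-like gene, took another course. Its signal was 8.42, 8.15 and 8.70 at day 0, 9.01, 8.70 and 8.80 at day 1, and 9.07, 9.41 and 9.20 at day 3. At day 7 it was 10.39, 12.42 and 12.32. The small steps up to day 3 were followed by a step that carried every day 7 array, replicate 1 included, above all others.

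The pseudogene Ifi203-ps moved with Mndal. It read 7.78, 7.61 and 8.03 at day 0, 7.78, 7.79 and 8.26 at day 1, 8.56, 8.39 and 8.32 at day 3, and 9.9998, 12.17 and 11.56 at day 7. Days 0 and 1 overlapped, and day 7 replicate 1 exceeded the highest day 3 array by 1.44. The cluster annotated to Ifi203, Ifi203-ps and a further locus had 7.68, 7.19 and 7.82 at day 0, 8.09, 7.92 and 7.94 at day 1, 8.29, 8.64 and 8.07 at day 3, and 9.35, 11.59 and 11.22 at day 7. Its course was that of the pseudogene, whose symbol it shares, so Ifi203 itself has no value of its own here.

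Ifi209 lay between these courses. It had 6.35, 6.32 and 6.26 at day 0, 6.79, 6.63 and 6.35 at day 1, 6.93, 7.53 and 7.38 at day 3, and 7.76, 8.91 and 9.24 at day 7. Each day's arrays were above those of the day before, by a small margin between days 0 and 1.

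Aim2, the inflammasome receptor, was the dimmest member. Its log2 signal was 5.38, 5.45 and 5.52 at day 0, 5.88, 5.70 and 5.68 at day 1, 5.65, 5.85 and 5.81 at day 3, and 6.29, 6.00 and 5.95 at day 7. No array of days 0, 1 or 3 reached its negative control median, and 1 of 3 did at day 7. Days 1 and 3 overlapped and both were above day 0, and day 7 replicate 1 was here the highest array. Of all members only Aim2 had its day 7 maximum on that array, whose signal over background was the lowest, so its level and its change are approximate.

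**Figure D2:**
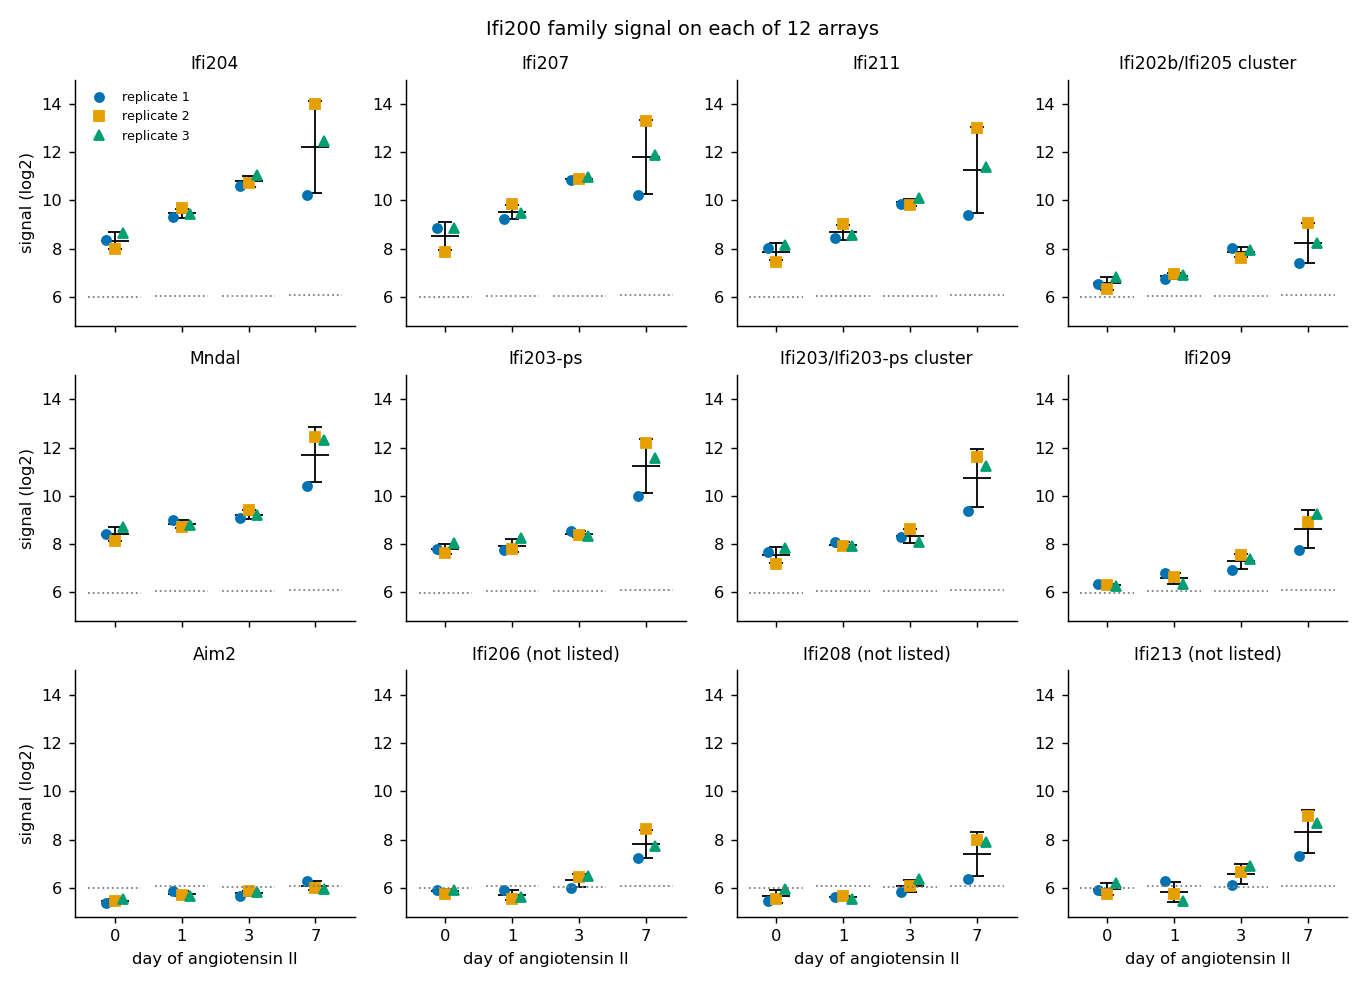
Log2 signal of 7 members, of the 2 clusters shared by several genes and of 3 family genes not on the list, on each of 12 arrays by day of angiotensin II; symbols are replicates, the horizontal bar is the mean of 3 arrays with ± 1 SD, and dotted lines are the mean of the arrays' negative control medians. In the upper row all day 3 arrays are above all day 1 arrays, in Mndal and the Ifi203 panels most of the difference comes at day 7, and Aim2 stays near the dotted line.

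The family genes that are not on the list also differed at day 7. Ifi206 read 5.92, 5.75 and 5.92 at day 0 and 7.25, 8.42 and 7.74 at day 7. For Ifi208 the values were 5.46, 5.54 and 5.94, then 6.37, 7.96 and 7.90, and for Ifi213 they were 5.92, 5.74 and 6.20, then 7.33, 8.98 and 8.67. Ifi206 and Ifi208 were under the negative control median on every array of days 0 and 1, and Ifi213 exceeded it on 1 of 3 arrays of each. The changes of these genes are therefore approximate. Ifi214 had no cluster. The annotation's old symbol Pydc3 carries the gene identifier of Ifi208 and not that of Ifi211, which has a cluster under its own name.

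Changes were estimated in limma on all 22065 genes that passed the filter, with Benjamini-Hochberg adjustment over all of them, and a gene was called at adjusted p under 0.05. In that fit 7 of 7 members passed the F test over days 1, 3 and 7, with adjusted p between 0.00567 (Ifi203-ps) and 0.0360 (Ifi211). Of all genes 14.6% passed it. At day 1 against day 0, 0 of 7 members were called, where 1.99% of all genes were called higher. Only Aim2 had an unadjusted limma p under 0.05 there, which makes 1 of 7, beside 3622 of all 22065 genes in either direction. The day 1 arrays lay above all day 0 arrays for 6 of 7 members, Ifi203-ps being the exception, beside 11.8% of all genes. The members' median change was 0.41 log2 units against 0.01 over all genes, the highest being Ifi204 at 1.14 ± 0.73 (± SE of the limma estimate here and below, adjusted p = 0.541).

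At day 3 against day 0, 1 of 7 members was called, Ifi207, beside 4.61% of all genes called higher. Its change was 2.37 ± 0.62 log2 units, or 5.19-fold, with adjusted p = 0.0391. Ifi204 stood at 2.46 ± 0.73 (adjusted p = 0.0603) and Ifi211 at 2.03 ± 0.70 (adjusted p = 0.0938), neither of which passed. The cluster shared by Ifi202b and Ifi205, tested when clusters with several symbols were added, rose by 1.30 ± 0.34 (adjusted p = 0.0406 in limma). All 7 members had day 3 arrays above the day 0 arrays, beside 23.3% of all genes, and the median change was 0.98 against 0.08 over all genes.

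The day 3 call rests on the arrays of the fit. Ifi207 missed the threshold in limma without any 1 of the 3 day 0 arrays, the 3 day 3 arrays, day 1 replicates 2 and 3 or day 7 replicate 3 (adjusted p between 0.0505 and 0.128). Its change from day 0 lay between 2.05 and 2.55 in these fits. Without day 7 replicate 1, 6 of 7 members were called at day 3, all but Ifi203-ps, beside 6.51% of all genes called higher in that fit. Without day 7 replicate 2 it was 3 of 7, beside 4.55%.

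At day 7 against day 0 all 7 members rose, beside 12.1% of all genes called higher, and all 7 were above every day 0 array, beside 26.6%. The change was 3.89 ± 0.73 for Ifi204, a 14.8-fold difference (limma adjusted p = 0.00718). Ifi203-ps rose by 3.44 ± 0.44 (10.8-fold), Ifi211 by 3.38 ± 0.70, Mndal by 3.29 ± 0.45 and Ifi207 by 3.26 ± 0.62. Ifi209 rose by 2.33 ± 0.33 and Aim2 by 0.63 ± 0.11, or 1.55-fold. Adjusted p ran from 0.00175 (Ifi203-ps) to 0.0102 (Ifi211). The members' median was 3.29 against 0.09 over all genes. The estimates from Ifi204 to Ifi207 overlapped within 1 standard error.

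Outside the 7, the cluster of Ifi203 and Ifi203-ps rose by 3.16 ± 0.48 at day 7 (adjusted p = 0.00327 in limma) and that of Ifi202b and Ifi205 by 1.68 ± 0.34 (adjusted p = 0.0101). Ifi213 rose by 2.38 ± 0.41, Ifi206 by 1.94 ± 0.26 and Ifi208 by 1.76 ± 0.37 (limma adjusted p between 0.00206 and 0.0108). Every cluster of the family that was measured thus stood higher at day 7.

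Day 7 replicate 1 was the lowest day 7 array for the 6 members other than Aim2, for which it was the highest. Without it the change at day 7 was 4.89 for Ifi204, 4.31 for Ifi211, 4.06 for Ifi203-ps, 4.05 for Ifi207, 3.95 for Mndal, 2.77 for Ifi209 and 0.53 for Aim2. All 7 members were still called (limma adjusted p at most 0.0084), beside 6.66% of all genes called higher. The cluster of Ifi203 and Ifi203-ps then stood at 3.84 and that of Ifi202b and Ifi205 at 2.09, with Ifi213 at 2.88, Ifi208 at 2.29 and Ifi206 at 2.22, all still called. The direction and the calls at day 7 were thus the same with and without this array, and the estimate was larger without it for every member but Aim2.

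The split between early and late members shows in the share of the day 7 change that was already there at day 3. It was 77.4% for the cluster of Ifi202b and Ifi205, 72.8% for Ifi207, 63.3% for Ifi204 and 60.1% for Ifi211. Ifi209 had reached 41.9%. Mndal and the cluster of Ifi203 had each reached 24.4% and Ifi203-ps 17.9%, and Ifi213, Ifi208 and Ifi206 lay between 23.2 and 25.7%. Aim2 had reached 51.0%. The shares of Aim2, Ifi206 and Ifi208 are approximate, because none of their day 0 arrays exceeded the negative control median, and these 3 are placed in neither set. Ifi213 exceeded that median on 1 of 3 arrays at day 0 and on 1 of 3 at day 1, so its share is approximate too. Without day 7 replicate 1 the order of the clusters other than Aim2, Ifi206 and Ifi208 was the same. It was 47.1 to 62.2% for Ifi204, Ifi207, Ifi211 and the cluster of Ifi202b and Ifi205 (the early set), 35.2% for Ifi209, and 15.2 to 21.2% for Mndal, Ifi203-ps, Ifi213 and the cluster of Ifi203 (the late set). Aim2 then stood at 61.3%, Ifi206 at 20.3% and Ifi208 at 18.9%, which changed their places. These sets were formed after the values were seen and carry no test. The shares set comparisons with a common day 0 side by side.

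Of the single genes in the early set, Ifi207 and Ifi211 have windows that share 31 identical bases, and Ifi204 has no window. Of the pair behind the early cluster, Ifi205 resembles them and Ifi202b does not. In the late set Mndal shared 20 bases with Ifi213, and Ifi203-ps has no window. Ifi203, which is annotated to the late cluster, shared 139 bases with Mndal. Whether likeness of sequence bears on the time course was not tested.

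The same split shows within arrays, for pairs picked after the values were seen. The log2 signal of Ifi204 minus that of Mndal was -0.07, -0.17 and -0.03 at day 0, and 1.54, 1.31 and 1.86 at day 3. At day 7 it was -0.18, 1.57 and 0.15. All 3 day 3 arrays thus lay above the day 0 arrays, whereas day 7 overlapped both. For Ifi207 minus Ifi203-ps the day 0 mean was 0.72 ± 0.43, the day 3 mean 2.48 ± 0.20 and the day 7 mean 0.55 ± 0.49 (SD, n = 3). Only the shift between days can be read from such differences, since levels of different clusters are not on a common scale.

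**Figure D3:**
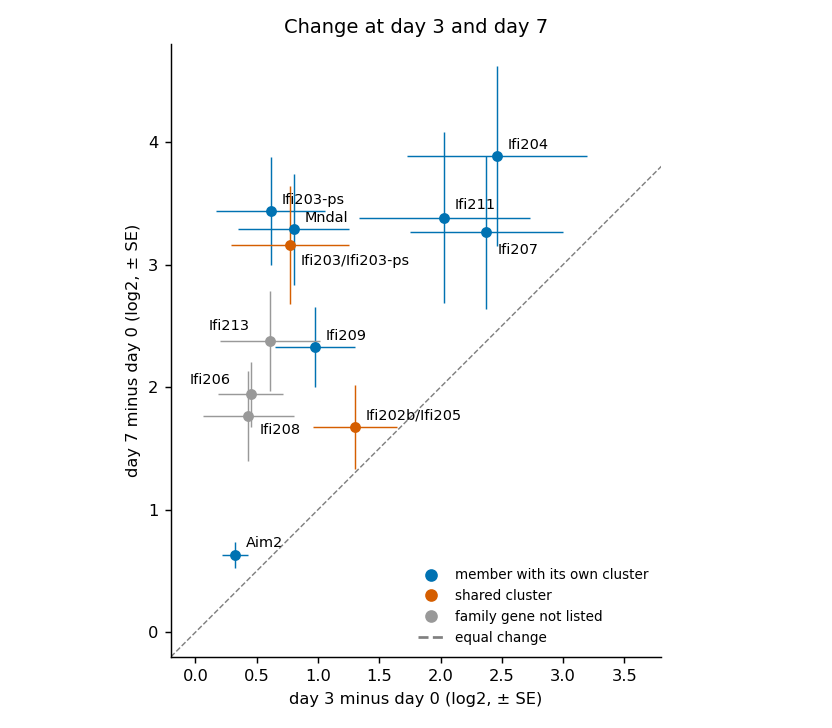
Change of each family cluster from day 0 in log2 units, day 3 on the x axis and day 7 on the y axis, with ± 1 SE of the limma estimate (3 arrays per group); blue points are listed members with a cluster of their own, orange points clusters shared by several genes, grey points family genes not on the list, and the dashed line marks equal change. Ifi204, Ifi207 and Ifi211 sit at 2.03 to 2.46 on the x axis, Mndal and Ifi203-ps at 0.62 to 0.80, although all 5 reach 3.26 to 3.89 on the y axis.

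Between treated days fewer members were called. From day 1 to day 3 limma called 0 of 7 members and 0% of all genes higher. An unadjusted p under 0.05 was held by 0 of 7 members, beside 1775 of all 22065 genes in either direction. The day 3 arrays nevertheless lay above all day 1 arrays for 6 of 7 members, beside 7.04% of all genes, Aim2 being the exception. From day 3 to day 7 only Ifi203-ps was called, at 2.82 ± 0.44 (limma adjusted p = 0.0416), beside 0.113% of all genes called higher. Mndal stood at 2.48 ± 0.45 (adjusted p = 0.0654). Day 7 lay above day 3 on all arrays for 4 of 7 members, Ifi203-ps, Mndal, Ifi209 and Aim2, beside 7.04% of all genes.

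The call of Ifi203-ps from day 3 to day 7 was lost in limma without any 1 array other than day 7 replicate 1 (adjusted p between 0.0514 and 0.183). Without day 7 replicate 1 it was 3.44 (adjusted p = 0.000204), and 5 of 7 members were called, all but Ifi207 and Aim2, beside 0.929% of all genes called higher in that fit. From day 1 to day 7 limma called Ifi203-ps (3.30 ± 0.44, adjusted p = 0.0111), Mndal (2.88 ± 0.45, adjusted p = 0.0167) and Ifi209 (2.04 ± 0.33, adjusted p = 0.0184), 3 of 7 members beside 1.88% of all genes called higher. All 7 lay above every day 1 array, beside 14.1%. Without day 1 replicate 2 none of the 3 was called, with adjusted p of 0.0568 to 0.0718 in limma, beside 0.0725% of all genes called higher. Without day 1 replicate 3 only Ifi203-ps was called, beside 0.254% of all genes. Without day 7 replicate 1, by contrast, 6 of 7 members were called from day 1 to day 7, beside 1.4% of all genes called higher.

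Partners with which AIM2 forms an inflammasome, and genes of related inflammasomes, were read from a list. Of 22 genes of the AIM2 inflammasome list with a cluster, 15 passed the filter. At day 7 limma called 5 of the 15 higher and 1 lower, beside 12.1% and 13.2% of all genes, with a median change of 0.30 against 0.09. Leaving out day 7 replicate 1 gave 6 higher and 1 lower, beside 6.66% of all genes called higher. Il1b, the cytokine cut by caspase-1, rose by 0.90 ± 0.20 and Gsdmd, the pore-forming gasdermin D, by 0.62 ± 0.13. Naip5 rose by 1.06 ± 0.20, Naip2 by 0.89 ± 0.13 and Nlrp1b by 0.67 ± 0.12, all sensors of other inflammasomes. Naip2 and Nlrp1b exceeded the negative control median on none of the day 0 arrays, so their sizes are approximate. Nek7, a kinase that licenses NLRP3, fell by 1.17 ± 0.25. On most arrays Il1b was under the negative control median, with 1 of 3 above it at day 7. The adaptor gene Pycard (0.30 ± 0.11, adjusted p = 0.0776), Casp1 (0.15 ± 0.28, adjusted p = 0.691) and Il18 (0.32 ± 0.11, adjusted p = 0.0579) did not pass in limma, and Pycard and Il18 were under that median on all arrays. At day 3 limma called Nlrp1b and Naip2, 2 of 15, higher, beside 4.61% of all genes.

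The list of cytosolic DNA and nucleic acid sensing genes had 21 genes tested, of 23 with a cluster. At day 7 limma called 7 higher and 2 lower, beside 12.1% and 13.2% of all genes. The median change was 0.14 against 0.09 over all genes. The fit without day 7 replicate 1 gave 7 higher and 1 lower, beside 6.66% of all genes called higher. Zbp1, a sensor of Z-form nucleic acids, rose by 1.95 ± 0.39 from a day 0 level at which no array exceeded the negative control median, and Samhd1, which depletes nucleotides, by 1.86 ± 0.44. Ifih1 and Ddx58, the RNA sensors MDA5 and RIG-I, rose by 1.59 ± 0.41 and 1.17 ± 0.36. Cgas, the enzyme that makes the messenger for STING, rose by 0.54 ± 0.10 at day 3 and 0.39 ± 0.10 at day 7, but it was under the negative control median on all arrays. Tlr9, the endosomal DNA receptor, rose by 0.80 ± 0.12, with 1 of 3 arrays above that median at day 7. Sting1 stood at 0.89 ± 0.35 (adjusted p = 0.0834), Tbk1 at 0.15 ± 0.23 and Irf3 at -0.06 ± 0.10, none of which passed in limma. Traf6, an adaptor of innate signalling, fell by 0.43 ± 0.09 at day 3, when 1 of 21 fell beside 7.14% of all genes called lower.

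Of the interferon receptors and their signalling genes 16 were tested. At day 7 limma called 6 higher and 1 lower, beside 12.1% and 13.2% of all genes, with a median of 0.27 against 0.09. Here too 7 were higher and 1 lower without day 7 replicate 1, beside 6.66% of all genes called higher. Those called with all arrays included Stat2 (2.36 ± 0.55) and Irf9 (1.25 ± 0.22), which form the factor that binds the response element, Irf7 (2.15 ± 0.46), the amplifier of interferon production, and Usp18 (1.64 ± 0.32), a brake on the receptor. Irf7 and Usp18 exceeded the negative control median on no array of days 0 and 1, so their sizes are approximate. Ifnar1 (-0.09 ± 0.16) and Ifnar2 (0.18 ± 0.15), the receptor chains, did not pass, while Ifngr2, a chain of the interferon gamma receptor, fell by 0.85 ± 0.20. None of these genes except Irf5 was called at day 3, where 1 of 16 rose, beside 4.61% of all genes. Irf5 was under the negative control median on all arrays, so the size of its change is approximate.

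The interferon genes themselves were dim. Of 12 tested, 10 stayed below the negative controls' median on every day 0 array, and 8 still did so at day 7. Ifna13 alone was called by limma at day 7 (0.72 ± 0.18), beside 12.1% of all genes called higher, and without day 7 replicate 1 none was. Ifnb1 stood at 0.40 ± 0.20 (adjusted p = 0.146). Such values do not show whether an interferon was made in the tissue.

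Other interferon-stimulated genes were called mainly at day 7. Of 44 tested, limma called 34 higher then and none lower, beside 12.1% and 13.2% of all genes. All 40 with an unadjusted p under 0.05 were higher, and 9575 of all 22065 genes had such a p in either direction. The median change of the 44 was 1.34. On all 3 arrays of a day, 15 of the 44 were under the negative control median at day 0 and 11 at day 1. At day 3 it was 7 and at day 7 it was 2, so changes of these genes are approximate. At day 3 limma called 1 higher, Slfn9, beside 4.61% of all genes, with a median of 0.31, where 37 of 44 had a positive estimate. Oas2, the synthetase that activates RNase L, rose most at day 7 (3.95 ± 0.72), followed by Ifit1 (2.59 ± 0.69), Trim30a (2.59 ± 0.45), Phf11b (2.55 ± 0.53) and Oasl2 (2.11 ± 0.41). The list's mean on each array was 6.76 to 6.91 at day 0, 6.84 to 7.00 at day 1 and 7.01 to 7.25 at day 3. At day 7 it was 7.36, 8.66 and 8.47, with replicate 1 lowest. Without it limma called 41 of 44 higher at day 7 and 9 at day 3, beside 6.66% and 6.51% of all genes. From day 3 to day 7 limma called 0 of 44 with all arrays, beside 0.113% of all genes called higher. An unadjusted p under 0.05 was held by 33 of 44, beside 2853 of all 22065 genes in either direction. Without day 7 replicate 1 limma called 34 of 44, beside 0.929% of all genes called higher.

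Markers of macrophages were already higher at day 1. Their list mean over 21 genes was 6.99 to 7.23 at day 0, 8.14 to 8.59 at day 1, 8.26 to 8.75 at day 3, and 8.06, 9.15 and 8.65 at day 7. Limma called 10 of 21 higher at day 1, 17 at day 3 and 19 at day 7, beside 1.99, 4.61 and 12.1% of all genes. Those of day 7 were led by Ctss (4.03 ± 0.74), Lyz2 (3.19 ± 0.38), Ms4a6c (2.36 ± 0.33), Ccr2 (2.23 ± 0.32) and Ms4a7 (2.02 ± 0.37). On each of these days 20 of 21 estimates were positive. The exception, Mertk, stood at -0.71 ± 0.48 at day 1, -0.95 ± 0.48 at day 3 and -1.25 ± 0.48 at day 7, and was not called. From day 3 to day 7 the median marker changed by 0.10, and limma called 0 of 21, beside 0.113% of all genes called higher. The 4 with an unadjusted p under 0.05 went both ways, Ms4a7 (1.03 ± 0.37) and Ccr2 (0.82 ± 0.32) up, Mrc1 (-1.90 ± 0.54) and Cd163 (-0.93 ± 0.22) down, so the median stands for no common course. When day 7 replicate 1 was left out, limma called 19 higher at day 7 against day 0, and 1 from day 3 to day 7. All genes called higher were then 6.66% and 0.929%. At day 0, 2 of the 21 markers stayed below the negative controls' median throughout, and the level of the lysozyme gene Lyz2 went from 12.5 at day 0 to 15.7 at day 7. More macrophages and more RNA per cell cannot be told apart in bulk tissue.

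With the macrophage list mean as a covariate, limma called 0 of 7 members at day 7 against day 0 (adjusted p between 0.172 and 0.96), and only 8 genes of all 22065. In that fit Ifi204 stood at 0.17, Ifi207 at 0.22 and Ifi211 at -0.12, whereas Ifi203-ps stood at 1.71 and Mndal at 1.15. From day 3 to day 7 the same fit called 3 of 7 members, beside 0.499% of all genes called higher, Ifi203-ps (2.78, adjusted p = 0.014), Mndal (2.43, adjusted p = 0.0125) and Ifi209 (1.31, adjusted p = 0.033). No treated array overlapped the day 0 arrays in the list mean, so in comparisons with day 0 this fit can hardly tell the covariate and the treatment apart.

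Markers of other cell types were measured as well. At day 7 limma called 3 of 6 dendritic cell markers, 2 of 6 neutrophil markers, 1 of 3 T and NK cell markers and 4 of 7 fibroblast markers higher, while neither B cell marker was called or had an unadjusted p under 0.05. Of all genes 12.1% were called higher and 13.2% lower at day 7. All 3 T and NK cell markers and both B cell markers stayed below the negative controls' median on every array. Of the 6 dendritic cell markers 4 were under it on all 3 day 0 arrays and 1 on all day 7 arrays. Of the 6 neutrophil markers it was 4 and 2. Sizes for both lists are therefore approximate. Smooth muscle markers fell in 9 of 10 cases, with a median of -3.92, endothelial markers in 2 of 9, and 1 of 8 adipocyte markers rose. Fibroblast markers had a median change of 1.77 at day 7 against day 0, with 7 of 7 estimates positive, and of 1.11 from day 3 to day 7. Their list mean was 12.97 to 14.00 at day 0, 14.04 to 14.44 at day 1, 14.25 to 14.50 at day 3 and 14.68 to 15.53 at day 7. Without day 7 replicate 1 the counts higher were 2 of 6 dendritic cell, 2 of 6 neutrophil, 1 of 3 T and NK cell, 4 of 7 fibroblast and 1 of 8 adipocyte markers, and 9 of 10 smooth muscle, 1 of 9 endothelial and 1 of 8 adipocyte markers fell. In that fit 1469 of all 22065 genes were called higher and 1916 lower. The part of any of these cells in the family's rise was not tested.

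**Figure D4:**
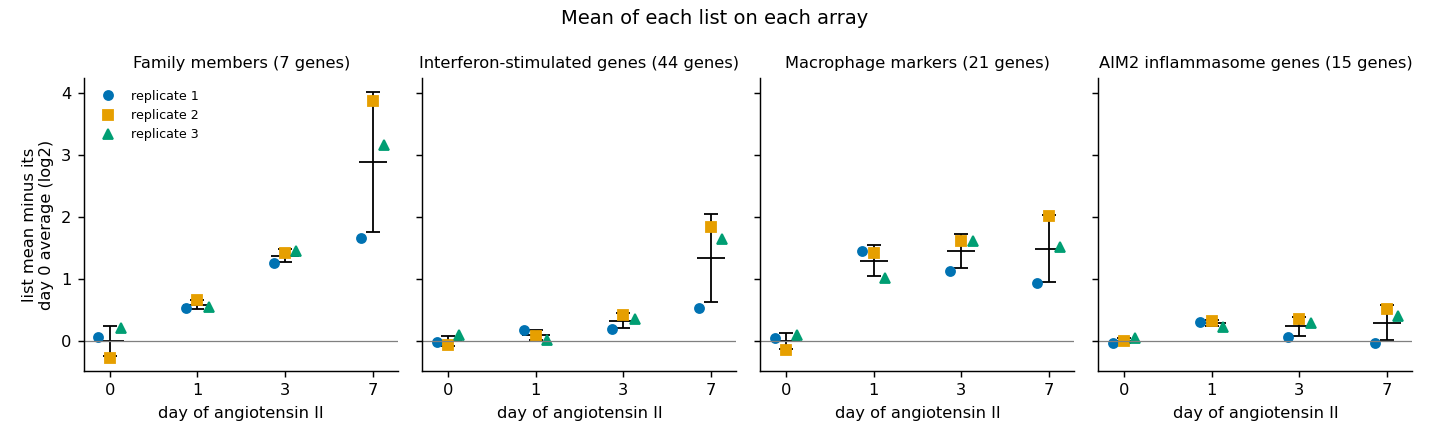
Mean log2 signal of 4 gene lists on each of 12 arrays, shown as the difference from the list's day 0 average, by day of angiotensin II; symbols are replicates and the bar is the mean of 3 arrays with ± 1 SD. Macrophage markers have most of their difference at day 1, interferon-stimulated genes at day 7 replicates 2 and 3, and the family members lie higher at each later day.

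Genes whose course was most like that of the family were looked up among 22055 tested genes outside it, by the root mean square difference over 12 arrays after each gene was centred on its own mean. The nearest to the mean of the 7 members was Trim30a (0.22), an interferon-induced ubiquitin ligase, against a root mean square of 1.18 for that mean itself. Oasl2, Phf11b, Slfn4, Trim30d, Cfb, Irf7, Ms4a4c, Slfn8 and Mmp2 followed at 0.32 to 0.42. For single members the nearest genes were looked up afterwards, outside the rule for named genes. Nearest to Ifi204 was Ctss, the macrophage protease cathepsin S, at 0.50. Nearest to Ifi207 was Cfb, complement factor B, at 0.57, and nearest to Ifi211 was Trim30a. Mndal lay nearest to Trim30a (0.35), Phf11b and Rnf213, and Ifi203-ps nearest to C1qtnf3 (0.43) and Rnf213. Ifi209 lay nearest to Zbp1 (0.23), and Aim2 nearest to Asic5 (0.08) and 1110020A21Rik (0.09), against a root mean square of only 0.25 for Aim2 itself. Among the members the closest pairs were Ifi204 and Ifi211 (0.22), Ifi207 and Ifi211 (0.23), and Mndal and Ifi203-ps (0.27). The pair of Ifi207 and Ifi203-ps was at 0.84. All arrays share a platform and the day 7 spread weighs heavily in this measure, which is a description.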

How the data were processed

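The deposited table held 72688 features as log2 signal, made by the authors with the software Affymetrix Expression Console according to the submitters' processing notes. The sources used here state neither its version nor how background and arrays were adjusted. The deposited identifiers are transcript clusters, unlike those of the array named in the labels. Old symbols were updated through gene identifiers, so Ifi207 was found as AI607873. Of 65956 transcript clusters 31258 had 1 symbol, giving 30702 genes, and 581 features at the ceiling on every array held no member. Values were used as deposited, and the number of arrays limits precision. Tested genes had signal at or above the 40th percentile of all clusters (5.25) on 3 or more arrays. The test was limma 3.58.1 (R 4.3.3) on all 12 arrays with 1 mean for each group, checked on simulated data. Shared clusters were tested in an added fit that kept clusters with several symbols. The members, gene lists and alternatives were chosen with earlier results of these data known. The text names every member, up to 5 called genes of each list with the largest change, and a set of pathway genes in any case. Promoters are RefSeq's, matched by symbol for 12 of 14 family genes.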

Additional observations from a re-analysis of the deposited data

Results flagged for a closer look

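For 4 differences between treated days the change itself was tested and passed. Ifi203-ps was higher at day 7 than at day 3 by 2.82 log2 units and higher than at day 1 by 3.30, on 3 of 3 arrays in both cases. Mndal was higher at day 7 than at day 1 by 2.88 and Ifi209 by 2.04, again on 3 of 3 arrays. Limma adjusted p was 0.0416, 0.0111, 0.0167 and 0.0184 in that order. Of all genes 0.113% were called higher from day 3 to day 7 and 1.88% from day 1 to day 7. With only the 6 arrays compared none of the 4 was called (limma adjusted p between 0.194 and 0.346). All genes called higher were then 0.00453% from day 3 to day 7 and 0.00906% from day 1 to day 7.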

How the results depend on the processing

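At day 7 against day 0 all 7 members were called without any 1 array (7 to 7), and their direction was the same under quantile normalization and after centring arrays on their medians, which moved the median of all genes from 0.09 to -0.19 and the share of calls that were higher from 47.9 to 20.6% (24.2% with quantile normalization). Members called at day 7 numbered 0 with the macrophage marker mean as a covariate, 4 with only the 6 arrays compared, and 4 in a combined setting that left out day 7 replicate 1 and fitted the positive-minus-negative control difference. All genes called higher at day 7 were 0.0136%, 5.42% and 0.784% in these 3 settings. They were 6.01% with quantile normalization, 5.81% after centring, and 4.59 to 19.1% with 1 array left out. At day 3 members called numbered 2 with quantile normalization or the control-feature difference, 6 with array weights and 7 with only the 6 arrays. They numbered 0 with the macrophage covariate, 0 in the combined setting, and 0 to 6 without any 1 array. At day 1 array weights called 1, beside 8.48% of all genes called higher, and leaving out arrays 0 to 0. From day 1 to day 3 array weights called 1, beside 3.1% of all genes called higher, and leaving out arrays 0 to 0. From day 3 to day 7 the macrophage covariate, the control-feature difference and array weights each called 3, the 6 arrays 0, the combined setting 4, and leaving out arrays 0 to 5. From day 1 to day 7 quantile normalization called 5, the macrophage covariate, the control-feature difference and the combined setting 6 each, array weights 7, the 6 arrays 0, and leaving out arrays 0 to 6. All genes called higher at day 3 were 4.61% with the values as deposited, 2.63% with quantile normalization, 1.23% with the control-feature difference, 14.5% with array weights and 8.84% with the 6 arrays. From day 3 to day 7 they were 0.113%, against 1.09% with the control-feature difference, 0.911% with array weights and 1.28% in the combined setting. From day 1 to day 7 they were 1.88%, against 1.82% with quantile normalization, 1.87% with the macrophage covariate and 10.8% with array weights. The control-feature difference gave 1.09% there and the combined setting 1.29%. With 1 array left out, all genes called higher ran from 1.29 to 6.51% at day 3. They ran from 0.0272 to 0.929% between days 3 and 7, and from 0.0725 to 10.2% between days 1 and 7. The causes were not tested.

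With the replicate number as a block, members called fell to 0 at day 3 against day 0 (Ifi207 adjusted p = 0.0508 in limma). All genes called higher were then 5.21%. At day 7 against day 3 members called also fell to 0 (Ifi203-ps limma adjusted p = 0.0566), beside 0.122% of all genes called higher. Whether the numbers pair the arrays cannot be settled from the residuals. Those of same-numbered arrays correlated at -0.51 to 0.66, above 0.1 in 7 of 18 pairs. For arrays with different numbers the range was -0.65 to 0.46, above 0.1 in 10 of 36 pairs.

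Directions turned with the macrophage covariate. At day 1 it gave Ifi209 -1.04, Ifi207 -1.65, Ifi204 -2.09, Ifi203-ps -1.36, Mndal -1.45 and Ifi211 -2.25. At day 3 it gave Ifi206 -0.91, Ifi213 -1.57, Ifi209 -0.52, Ifi208 -1.31, Ifi207 -0.59, Ifi204 -1.16, Ifi203-ps -1.06, Mndal -1.29 and Ifi211 -1.38, and at day 7 Ifi208 -0.019 and Ifi211 -0.12. With the control-feature difference Ifi213 was 0.10 and Ifi208 0.34 at day 1 and Aim2 -0.087 from day 1 to day 3. Array weights gave Ifi208 0.0070 at day 1. Aim2 from day 1 to day 3 was -0.11 with quantile normalization, -0.13 after centring and -0.089 in the combined setting, which also gave Ifi206 -0.13 and Ifi213 -0.46 at day 3. Leaving out an array turned only changes that were not called, at day 1 for Ifi213 (-0.35 to 0.061), Ifi208 (-0.13 to 0.10) and Ifi203-ps (-0.022 to 0.25), and from day 1 to day 3 for Aim2 (-0.024 to 0.082).

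All genes called at day 7 numbered 5572, and 8 with the macrophage covariate, 771 with the control-feature difference, 238 in the combined setting, 2720 with the 6 arrays and 2837 to 7472 without any 1 array. Aim2 stood near background, so its size is limited by signal over background. The combined setting, the clusters with several symbols and the counts over gene lists without day 7 replicate 1 were added after the data were seen.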

Other observations

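The genes next to the family on chromosome 1 were looked at on both sides. Of the 4 that passed the filter, each missed the limma threshold at day 7. Cadm3, a cell adhesion gene, stood at 0.23 ± 0.11 log2 units (adjusted p = 0.127) and was above the negative control median on most arrays. Ackr1, the chemokine-binding receptor of red cells and venules, stood at 0.01 ± 0.16 (adjusted p = 0.961), Mptx2 at 0.59 ± 0.22 (adjusted p = 0.0746) and Olfr430 at 0.80 ± 0.27 (adjusted p = 0.0524). Those last 3 were dim: Ackr1 and Mptx2 were under that median on 12 of 12 arrays and Olfr430 on 11. Olfr432 and Olfr433 did not pass the filter.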
